A study of Rattus norvegicus with 2 samples.

Results

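Immediate early transcription factor and MAP kinase phosphatase genes, 10 in all, were compared between rat endothelial cells of 2 origins. They were the transcription factor genes Fos, Jun, Junb, Egr1, Nr4a1, Klf4, Myc and Ets1, and the MAP kinase phosphatase genes Dusp1 and Dusp6. The members were all probe sets of the array that its annotation pairs with exactly 1 of these symbols, which gave 26 of the 8740 probe sets that are not controls and covered 10 of the 4736 symbols on the array. No probe set named a member together with another gene (0 found). The first group was endocardial endothelial cells, from the lining of the heart chambers, and the second was aortic endothelial cells. Both came from the same 2 rats, were pooled by origin and passaged 2 times under culture conditions matched for confluence. Strain, age, genotype and treatment are not given in the sources used here. Total RNA of each pool was hybridised to 1 Affymetrix rat genome U34A array, so each group is a single pooled culture and no difference below has a replicate check or a p-value.

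Immediate early genes are switched on by signalling alone, without new protein synthesis, when serum, growth factors or shear stress activate the MAP kinases. Fos and Jun proteins pair to form the AP-1 factor, Egr1 is a zinc finger factor downstream of ERK, and the MAP kinases are in turn switched off by dual-specificity phosphatases. Dusp1 sits in the nucleus and acts on several MAP kinases, while Dusp6 sits in the cytoplasm, prefers ERK and is itself transcribed downstream of ERK as a feedback inhibitor. In endothelium Klf4 is known as a factor induced by laminar flow, and Ets1 as a factor of angiogenic growth.

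The promoters of the 2 phosphatase genes are shown because their signals differed between origins to unlike degrees. Those of Klf4 and Egr1 are shown because their gene medians stood at a large and a small difference, though the Egr1 probe sets disagreed widely. Each promoter is the 250 bases before the gene start in RefSeq, assembly GRCr8, read along the gene, with matches to the motifs named after them in capitals. Of the 10 members, 6 had a promoter in the table. Dusp6 is at chr7:35979354-35979603 on the plus strand, Dusp1 at chr10:17184603-17184852 on the plus strand, Klf4 at chr5:75078593-75078842 on the minus strand and Egr1 at chr18:26736828-26737077 on the plus strand.
Dusp6: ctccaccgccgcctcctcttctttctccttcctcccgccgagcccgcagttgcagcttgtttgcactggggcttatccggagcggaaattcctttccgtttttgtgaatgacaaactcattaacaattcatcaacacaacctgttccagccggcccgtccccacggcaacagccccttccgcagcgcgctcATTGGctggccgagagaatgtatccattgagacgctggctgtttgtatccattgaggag
Dusp1: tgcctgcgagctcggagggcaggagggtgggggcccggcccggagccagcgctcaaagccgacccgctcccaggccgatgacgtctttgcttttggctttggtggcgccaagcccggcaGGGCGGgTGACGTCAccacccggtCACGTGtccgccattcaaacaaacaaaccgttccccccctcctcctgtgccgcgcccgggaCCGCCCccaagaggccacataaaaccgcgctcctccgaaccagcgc
Klf4: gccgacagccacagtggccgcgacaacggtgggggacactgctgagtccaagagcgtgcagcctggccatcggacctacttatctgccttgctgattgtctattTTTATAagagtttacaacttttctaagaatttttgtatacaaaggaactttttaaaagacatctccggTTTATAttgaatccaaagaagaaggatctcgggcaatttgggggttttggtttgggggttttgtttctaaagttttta
Egr1: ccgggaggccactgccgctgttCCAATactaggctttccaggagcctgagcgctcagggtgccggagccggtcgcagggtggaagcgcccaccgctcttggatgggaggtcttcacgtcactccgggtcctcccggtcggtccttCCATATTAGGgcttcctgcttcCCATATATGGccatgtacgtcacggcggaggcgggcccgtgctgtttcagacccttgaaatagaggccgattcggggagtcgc
The motifs searched on both strands were the CArG box bound by serum response factor, the cyclic AMP response element TGACGTCA, the AP-1 element TGACTCA, the E-box CACGTG bound by Myc, the GC box GGGCGG, the Egr1 element GCGTGGGCG, TATAAA and CCAAT, and no capitals above belong to 2 motifs at once. Egr1 held 2 CArG boxes, which began 105 and 83 bases before the start, and 501 of the 33469 promoters in the table held such a box. Dusp1 held TGACGTCA 124 bases before the start, found in 1.59% of promoters, and CACGTG, found in 5.59%. Dusp1 also held the GC box on both strands, found in 30.47% of promoters, and Egr1 also held CCAAT. The only match in Dusp6 was CCAAT, found in 34.02%, and Klf4 matched TATAAA alone, on the opposite strand (12.93% of promoters). TGACTCA and GCGTGGGCG matched in 0 of the 6 member promoters, against 4.05% and 0.48% of all. A match describes letters and is not a site, and a missing match says only that those letters are not in this window.

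Each probe set had 1 intensity per array, on a linear scale that can fall below 0, deposited by the authors and scaled here by 0.9994 (endocardial) and 1.0006 (aortic) to the same 2% trimmed mean. A floor was set at 635.4, the median of all scaled values. A value under the floor has no order, so a ratio against it is a lower bound taken against the floor. The arrays carry 38 background controls, probe sets for RNA that should be absent, and the highest of them read 1742.4. Of the 38, 6 on the endocardial and 7 on the aortic array read above the floor. A value just over the floor can therefore be background. Ratios below are endocardial over aortic, and log2 ratios of probe sets of the same gene varied with an SD of 0.39 over 625 genes. Over the 3932 probe sets whose 2 values both cleared the floor, the central 95% of log2 ratios ran from -1.25 to 1.37. The 3-prime to 5-prime signal ratio, a sign of RNA integrity, was 1.09 on the endocardial and 1.11 on the aortic array for beta-actin. The instrument records differed in the fluidics module and in the scan time, 2 of 41 settings, and these cannot be told apart from cell origin.

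The labels call both cultures endothelial, but of 7 endothelial marker genes with a probe set, 4 were under the floor on both arrays (Vwf, Pecam1, Kdr and Icam2), and the 3 measured ones summed to 5284.7 on the endocardial and 6144.5 on the aortic array. Of 6 smooth muscle genes, 2 passed 2-fold toward the endocardial array (Myl9 and Itga8) and 1 toward the aortic array (Myh11), and their summed signal was 140682.0 and 90618.3 on those arrays. Of 9 fibroblast genes 1 was higher (Postn) and 2 lower (Dcn and Lox), with sums of 238471.8 and 301900.9. These sums are carried by a few very bright genes. In every sum of this paragraph a gene under the floor is counted at the floor of 635.4. Macrophage genes differed by the widest ratio of these 5 lists, with a sum over 6 genes of 46077.3 on the endocardial and 6958.4 on the aortic array. Of the 6, 4 were at least 2-fold higher: Lyz2, which holds most of the endocardial sum, Ctss, Cd53 and Cd74. The aortic gene medians of these 4 were under the floor. Cd14 and Ptprc were within 2-fold (log2 ratios 0.38 and -0.09), 0 were lower and the median log2 ratio was 1.47. Csf1r and Itgam were under the floor on both arrays. With the highest background control as floor 5 were measured and 1 was higher (Lyz2), against 3.99% of 1904 genes. Of all genes at the floor of 635.4, 5.93% were at least 2-fold higher and 4.16% lower. Cardiomyocyte genes (5 measured) summed to 5779.5 and 6349.4, and 1 was at least 2-fold lower (Myh6, at least 2.50-fold). With the highest background control as floor 1 cardiomyocyte and 2 endothelial genes were measured, so most of those genes were dim. At that floor 6 smooth muscle genes were measured, of which 1 was higher (Myl9) and 0 lower, against 3.99% and 2.36% of all genes. Itga8 was then at least 1.07-fold higher and Myh11 at least 1.45-fold lower. Of 8 fibroblast genes measured there, 1 was higher and 2 lower. The part of these other cell types in the differences below was not tested, and in such bulk RNA fewer cells of a type and less RNA per cell cannot be told apart.

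Dusp6 was the member with the highest ratio toward the endocardial culture, and Klf4 the one with the lowest. Of the 26 probe sets 23 were above the floor on at least 1 array, and 5 of these read 2-fold or more above the aortic array on the endocardial one: both for Dusp6 and 1 each for Egr1, Ets1 and Jun. Among all 4808 probe sets above the floor on at least 1 array, 6.61% were that much higher. At least 2-fold lower were 3 of the 23, both for Klf4 and 1 of 2 for Myc, against 4.83% of all. The other 15 lay between. With the highest background control as the floor 15 member probe sets were measured, of which 3 were 2-fold or more higher, against 4.53% of 3070, and 2 lower, against 3.26%. The median log2 ratio was 0.31 over the 23 and -0.03 over all 4808. Of the 23, 4 passed the floor on the endocardial array alone and could give only a positive ratio. They were Jun rc_AI175959_at, Dusp6 X94185cds_s_at and Ets1 L20681_at, all counted as 2-fold higher, and Fos X06769cds_at. Egr1 U75398_s_at passed it on the aortic array alone and could give only a negative ratio.

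**Figure D1:**
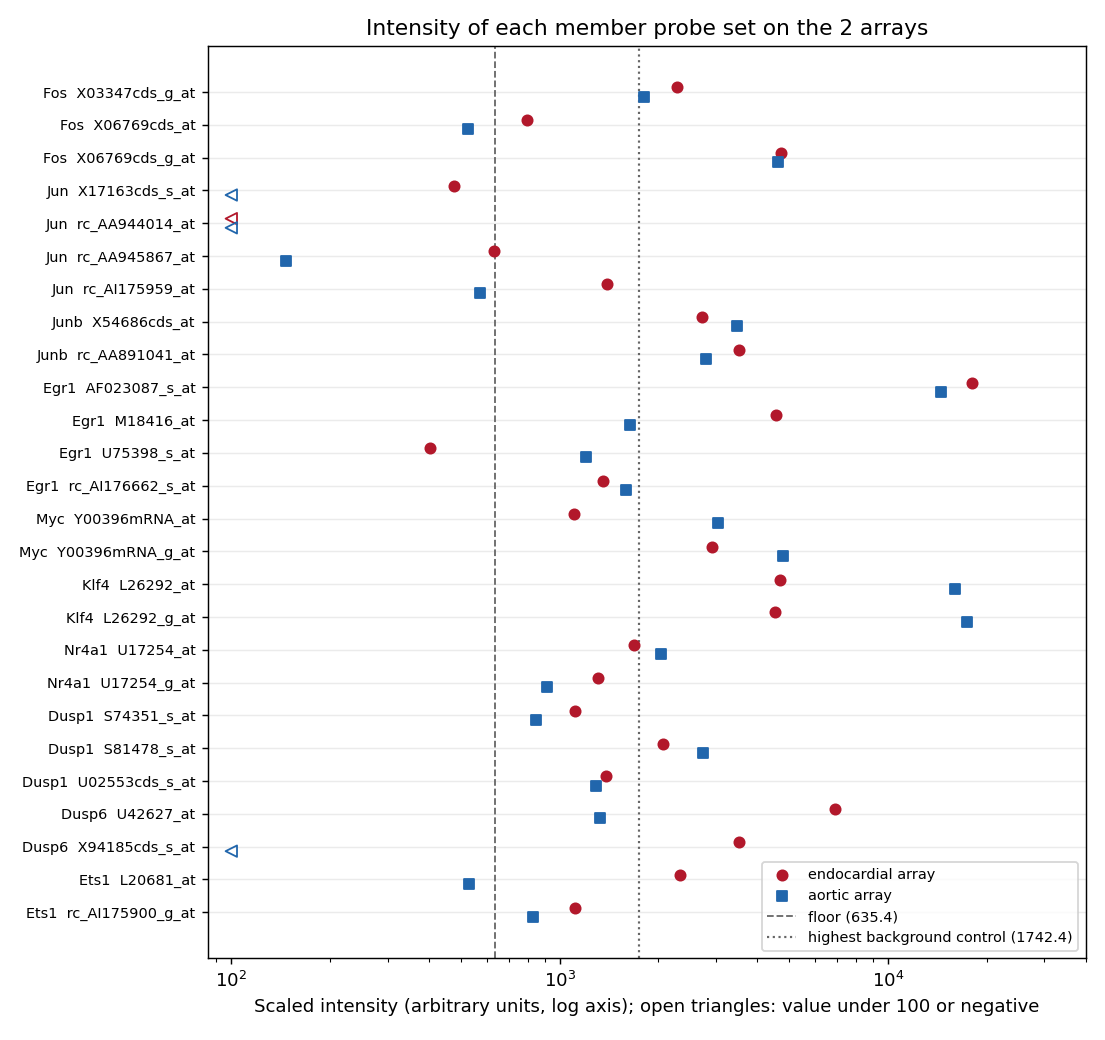
Scaled intensity (log axis) of the 26 member probe sets, with the endocardial array as circles and the aortic array as squares; dashed and dotted lines mark the floor (635.4) and the highest background control (1742.4), and open triangles at the left edge are values under 100 or negative. The Dusp6 circles lie far to the right of their squares, the Klf4 circles far to the left, and 9 probe sets have both marks right of the dotted line.

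The AP-1 genes Fos and Junb had signals that were close between the arrays. The brightest Fos probe set, X06769cds_g_at, read 4722.8 on the endocardial and 4629.4 on the aortic array, a log2 ratio of 0.03. X03347cds_g_at read 2286.3 and 1810.6 on the same arrays (log2 ratio 0.34). The dimmest Fos probe set, X06769cds_at, read 798.2 in endocardial cells and was below the floor in aortic cells (526.6), which bounds the ratio at 1.26-fold or more. All 3 read higher on the endocardial array, the 2 measured on both arrays by less than 2-fold.

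The pair of Junb probe sets pointed in opposite directions. Junb X54686cds_at read 2720.5 on the endocardial and 3464.0 on the aortic array, 1.27-fold lower. Junb rc_AA891041_at read 3508.1 and 2797.1, 1.25-fold higher. Their median log2 ratio of -0.01 therefore averages 2 probe sets that differ by 0.67.

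Jun, the main partner of Fos in AP-1, was barely detected. Of its 4 probe sets 3 were under the floor on both arrays. They read 477.2 (X17163cds_s_at), -60.5 (rc_AA944014_at) and 630.4 (rc_AA945867_at) on the endocardial array, and -1762.3, -62.5 and 146.8 on the aortic array. The other, rc_AI175959_at, read 1391.6 on the endocardial and 571.9 on the aortic array, at least 2.19-fold higher against the floor. That endocardial value is itself under the highest background control, so the count of Jun as higher rests on 1 dim probe set.

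Egr1 was the member whose probe sets differed most among themselves, with log2 ratios from 1.48 down to a bound of -0.92. The brightest, AF023087_s_at, read 18092.6 on the endocardial and 14553.8 on the aortic array, 1.24-fold higher. M18416_at read 4572.8 and 1643.8, 2.78-fold higher, and against the highest background control the difference is at least 2.62-fold. The dim probe sets leaned the other way: rc_AI176662_s_at read 1357.0 on the endocardial and 1593.1 on the aortic array, and U75398_s_at read 402.1 and 1203.8, at least 1.89-fold lower. Neither dim probe set cleared the highest background control on any array. The median log2 ratio of Egr1, 0.04, covers 1 probe set past 2-fold, ranked 81 from the top of 3932, beside a brighter one at 1.24-fold. With the highest background control as floor, which leaves out the dim probe sets, the gene median was 1.81-fold higher.

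Nr4a1, an orphan nuclear receptor of the immediate early class, had no single direction. Its probe set U17254_at read 1689.7 on the endocardial and 2039.1 on the aortic array, and U17254_g_at, from the same source sequence, read 1313.9 and 918.2. The log2 ratios were -0.27 and 0.52, and 1 of these 4 values exceeded the highest background control.

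Klf4 was lower on the endocardial array with both of its probe sets. L26292_at read 4679.5 on the endocardial and 16056.1 on the aortic array, 3.43-fold lower, and L26292_g_at read 4518.7 and 17443.3, 3.86-fold lower. All 4 values were well over the highest background control of 1742.4, so neither fold depends on the floor. Among the 3932 they ranked 36 and 26 from the lowest ratio. They belong to the 1311 brightest of these, for which the central 95% of log2 ratios ran from -1.21 to 1.02. The pair differed by 0.17 in log2 ratio. They are drawn from the same source sequence, so they are not independent measurements.

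Myc, the growth-promoting basic helix-loop-helix factor, was also lower on the endocardial array, by an amount that differed between its probe sets. Y00396mRNA_at read 1110.3 on the endocardial and 3046.4 on the aortic array, 2.74-fold lower. Y00396mRNA_g_at, from the same sequence, read 2919.3 and 4783.4, 1.64-fold lower. With the first endocardial value, which is under the highest background control, raised to that control, the first probe set is at least 1.75-fold lower. The gene median of 2.12-fold lower was 1.69-fold with that control as floor, so Myc keeps its direction and falls short of 2-fold there.

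Ets1 was higher on the endocardial array with both probe sets, both of them dim. L20681_at read 2324.1 in endocardial cells and was below the floor in aortic cells (528.8), at least 3.66-fold higher, or at least 1.33-fold against the highest background control. Ets1 rc_AI175900_g_at read 1116.0 and 830.3, 1.34-fold higher, with both values under that control.

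**Figure D2:**
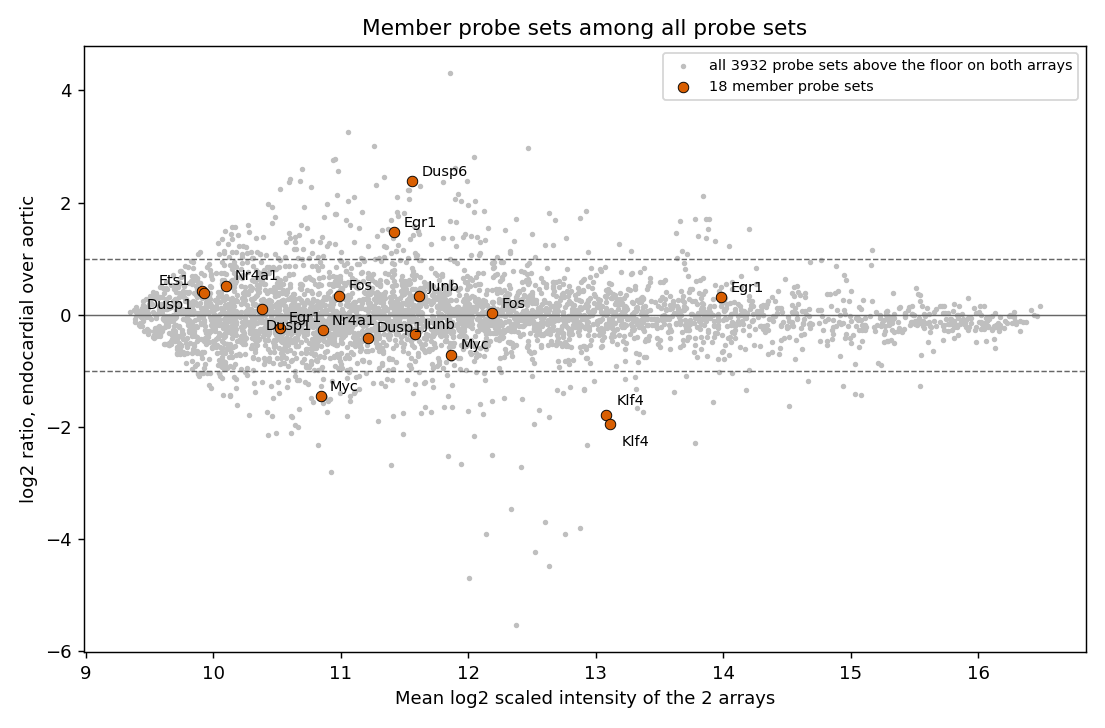
Log2 ratio, endocardial over aortic, against the mean log2 scaled intensity for the 3932 probe sets with both values over the floor (grey) and the 18 member probe sets among them (orange); dashed lines mark 2-fold. Dusp6 lies near the upper edge of the cloud and the Klf4 pair near the lower edge at high intensity, while Fos, Junb, Nr4a1 and Dusp1 lie within the dashed lines.

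The phosphatase genes had unlike ratios, with Dusp6 higher on the endocardial array and Dusp1 near 1-fold. Dusp6 U42627_at read 6911.4 on the endocardial and 1325.1 on the aortic array, 5.22-fold higher, the 15th highest ratio of 3932. The other Dusp6 probe set, X94185cds_s_at, comes from a separate source sequence and read 3514.0 in endocardial and -1080.3 in aortic cells, at least 5.53-fold higher against the floor. Against the highest background control the differences are at least 3.97-fold and at least 2.02-fold. Both endocardial values are over that control and both aortic values under it, so Dusp6 cleared it in endocardial cells alone.

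Dusp1 had 3 probe sets, all within 1.33-fold. S81478_s_at, the only one over the highest background control on both arrays, read 2059.9 on the endocardial and 2734.8 on the aortic array (log2 ratio -0.41). S74351_s_at read 1115.8 and 850.4 (log2 ratio 0.39), and U02553cds_s_at read 1386.0 and 1287.1 (log2 ratio 0.11). The range of 0.80 among them spans 0, so no direction can be given for Dusp1.

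By gene, taking the median of its probe sets, 3 of the 10 members were at least 2-fold higher (Dusp6, Ets1 and Jun), against 5.93% of the 2935 genes measured, 2 were lower (Klf4 and Myc), against 4.16%, and 5 lay between. Jun was called from 1 probe set that passed the floor on the endocardial array alone and could give only a positive ratio. The Dusp6 and Ets1 medians each include 1 such probe set. The other Ets1 probe set was 1.34-fold higher, so the calls of Jun and Ets1 rest on such bounds. The median over the 10 was 0.115 in log2 ratio, beside -0.02 over all genes. For 4 of the 10 genes, Junb, Egr1, Nr4a1 and Dusp1, the probe sets included both signs. With the highest background control as floor 9 members were measured, of which 1 was at least 2-fold higher (Dusp6) and 1 lower (Klf4), against 3.99% and 2.36% of 1904 genes.

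Other genes of the pathway were described from 5 lists, written with earlier results of these data known. Intensities and log2 ratios of a gene are separate medians over its probe sets, and a median that includes a bound is not itself a bound. Of 30 other immediate early and related factors 20 had a probe set and 14 were measured. At the gene level 0 passed 2-fold in the higher and 0 in the lower direction, with log2 ratios from -0.75 to 0.81 and a list median of -0.23. By gene, 5.93% of all were that much higher and 4.16% lower. The brightest were Id3, an inhibitor of basic helix-loop-helix factors (19836.4 on the endocardial and 10767.7 on the aortic array, log2 ratio 0.81), and Ier3, an immediate early survival gene (3957.2 and 6908.1, log2 ratio -0.75). Single probe sets passed 2-fold for Id3 (rc_AI171268_at, 2.32-fold higher) and the AP-1 subunit gene Fosl2 (rc_AI230842_at, at least 2.08-fold lower). The other Fosl2 probe set, U18982_s_at, was at least 1.41-fold higher, so Fosl2 has no single direction.

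Kinases and adaptors of the MAP kinase cascade had a median log2 ratio of -0.01. Of 29 listed genes 15 were measured, 1 was at least 2-fold higher, against 5.93% of all genes, and 0 were lower, against 4.16%, so the share past 2-fold was near that over all genes. The higher gene was Mapkapk2, a kinase downstream of the stress-activated MAP kinase, which read 2628.0 on the endocardial and -16.1 on the aortic array with its 1 probe set, at least 4.14-fold higher. Against the highest background control that is at least 1.51-fold. The brightest of the list were the 14-3-3 adaptor gene Ywhaz, whose 3 probe sets had log2 ratios of -0.05, 0.17 and 0.83, and the ERK-activating kinase gene Map2k1 (9130.8 and 14858.2, log2 ratio -0.74).

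Of 18 other phosphatase genes listed 6 were measured, with a median of 0.07. By gene 0 were at least 2-fold higher, against 5.93% of all genes, and 0 lower, against 4.16%. Ptpn7, a tyrosine phosphatase of MAP kinases, was 1.71-fold lower (1475.2 on the endocardial and 2520.4 on the aortic array). Ptpn6 was higher with both probe sets (1.75-fold and at least 1.48-fold). Of 5 probe sets of Ptpn1, 1 passed 2-fold (M33962_at, at least 2.08-fold higher), and the others had log2 ratios from -0.26 to 0.68. Dusp5, which acts on nuclear ERK, read 558.7 on the endocardial and 838.6 on the aortic array, at least 1.32-fold lower. Dusp4 and Dusp7 were under the floor on both arrays. The brightest were subunits of phosphatase 2A, Ppp2r1a (log2 ratio 0.05) and Ppp2cb (0.09).

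Genes known as targets of AP-1 or Egr1 included several that were lower on the endocardial array. Of 30 listed 19 were measured, with a median of -0.07. By 2-fold 0 were higher, against 5.93% of all genes, and 6 were lower, against 4.16%. Vcam1, a leukocyte adhesion receptor, read 1787.6 on the endocardial and 22620.0 on the aortic array, 12.4-fold lower. Tissue factor, F3, which starts coagulation, read 6354.0 and 30993.6, 4.88-fold lower. The growth factor gene Vegfa was 2.24-fold lower and the heme oxygenase gene Hmox1 2.08-fold lower. The call of the urokinase receptor gene Plaur (187.8 and 1968.3, at least 3.10-fold lower) depends on the floor. So does that of the cyclooxygenase gene Ptgs2, with probe sets 1.70-fold and at least 3.34-fold lower. With the highest background control as floor 14 were measured and 4 were lower, against 2.36% of 1904 genes. The brightest gene of the list was the chemokine gene Ccl2 (42880.4 and 43077.8, log2 ratio -0.01). Next was fibronectin, Fn1, whose 5 probe sets had log2 ratios from -0.79 to 0.41 with a median of -0.03.

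Genes linked to Myc, some of them known to be repressed by it, went both ways. Of 20 listed 13 were measured, 2 were at least 2-fold higher, against 5.93% of all genes, 1 was lower, against 4.16%, and the median was 0.08. The cyclin gene Ccnd2 read 6631.3 on the endocardial and 2451.7 on the aortic array with rc_AA899106_at, 2.71-fold higher. Its other probe set, D16308_at, read 4597.9 and 302.3, at least 7.24-fold higher. Cdkn1a, a cyclin-dependent kinase inhibitor gene that Myc is known to repress, read 3950.1 and 1839.3 with L41275cds_s_at, 2.15-fold higher, and 3490.7 and -655.2 with U24174_at, at least 5.49-fold higher. With the highest background control as floor the gene medians were 2.67-fold higher for Ccnd2 and 2.07-fold higher for Cdkn1a. Gadd45a, a growth arrest gene that Myc is also known to repress, read 1844.6 and 11957.2 over 4 probe sets, 6.05-fold lower. The brightest, the mitochondrial chaperone genes Hspd1 and Hspe1, had log2 ratios of -0.20 and -0.12.

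**Figure D3:**
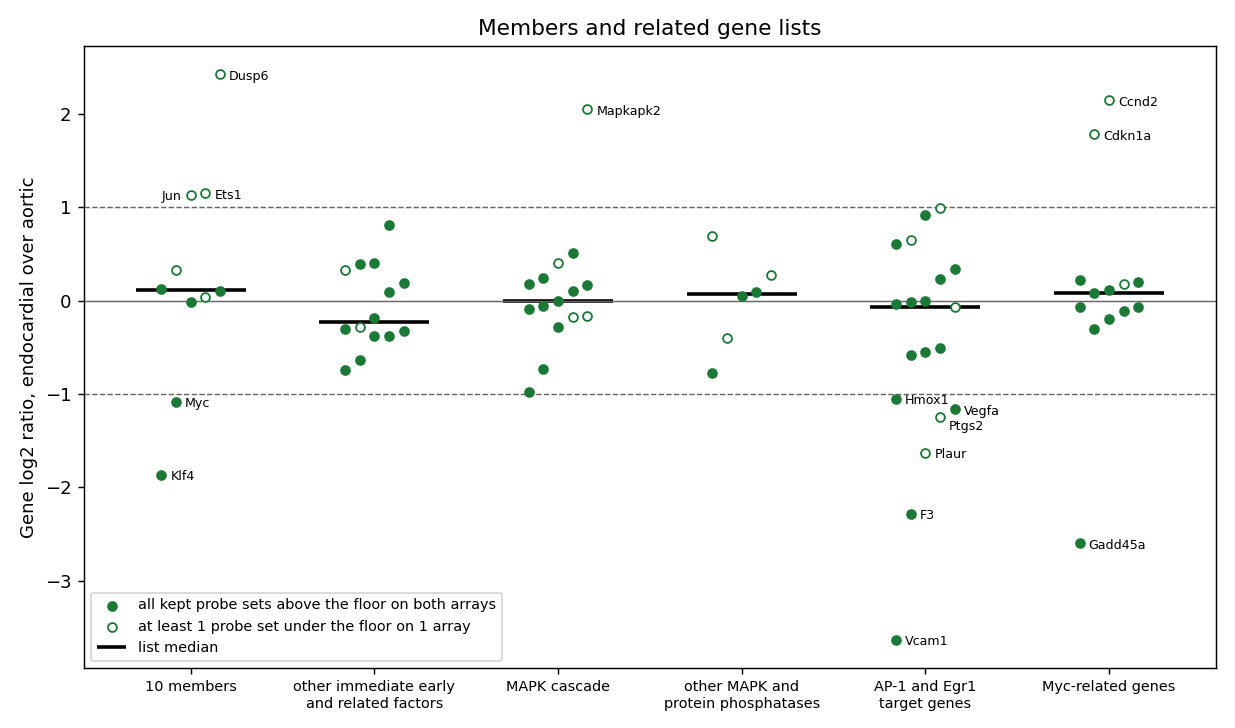
Log2 ratio of each measured gene, endocardial over aortic, for the 10 members and the 5 related lists; bars are list medians, dashed lines mark 2-fold, and open circles have a probe set under the floor on 1 array. Genes past 2-fold are named, from Dusp6 (2.43) among the members to Vcam1 (-3.63) among the AP-1 and Egr1 targets.

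The floor was the choice that moved the members most, which the ranges of each probe set over the alternatives show. Klf4 stayed between -1.95 and -1.74 in log2 ratio under every alternative that kept its probe sets. Dusp6 U42627_at ranged from 1.42 to 2.42, while its second probe set ranged from 0.45 to 3.04 because its aortic value is always at the floor. Egr1 M18416_at ranged from 0.83 to 1.52 and Myc Y00396mRNA_at from -1.49 to -0.24. Junb, Nr4a1 and Dusp1 stayed within 2-fold in the alternatives run, as did the Fos probe sets measured on both arrays.

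**Figure D4:**
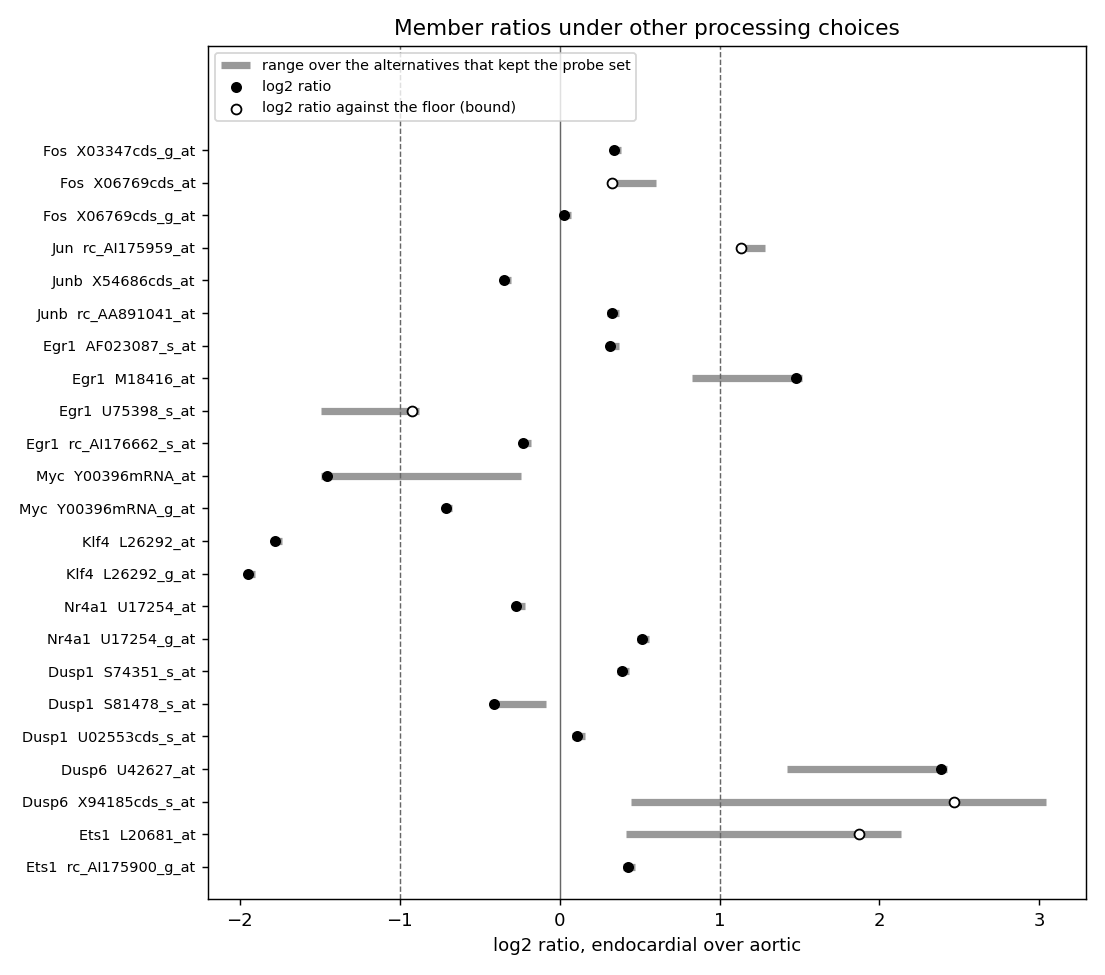
Log2 ratio of the 23 member probe sets above the floor on at least 1 array, endocardial over aortic (filled points; open where it is a bound), with grey bars for the range over the other processing choices; dashed lines mark 2-fold. The bars are short for Klf4, Fos and Junb and long for Dusp6, Ets1 L20681_at and Myc Y00396mRNA_at.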

How the data were processed

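Total RNA of 2 pooled cultures was read on 1 array each. The authors deposited 1 intensity per probe set and array on a linear scale, made by software that the sources do not name; the log2 ratios were computed here. Controls (59 probe sets) were set aside, and the remaining 8740 were scaled to a common 2% trimmed mean and raised to the floor of 635.4. Symbols came from the platform annotation, checked by gene identifier against RefSeq (GRCr8): 7006 probe sets had 1 symbol, 308 several and 1426 none, and 0 symbols changed. Calls are at a fixed 2-fold, with no test, since each group had 1 array; the number of arrays limits the precision. Every member probe set is reported, and of each related list the genes past 2-fold and the 2 brightest. Fosl2, Ptpn1, Ptpn6, Ptpn7, Dusp4, Dusp5 and Dusp7 were named outside this rule. Members and lists were chosen with earlier results of these data known. Counting was tested on simulated data. The alternatives tried were no rescaling, quantile normalization, median centring, loess (span 0.4), floors at the 75th percentile of values, at the highest background control and at the 25th percentile of positive values, plain probe sets (those ending in _at alone), the brightest probe set of each gene, and 1 probe set per source sequence. Python 3.11.15, pandas 2.3.3 and statsmodels 0.14.6 were used.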

Additional observations from a re-analysis of the deposited data

How the results depend on the processing

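No paired analysis was possible because each group had 1 array, and none could be left out. Of the log2 ratios of member probe sets, 142 moved by less than 0.39, the SD between probe sets of a gene, and 10 by more; all of the 10 came from another floor, and no call changed sign. The member probe sets counted at least 2-fold higher, 5 in the report, were 3 with the highest background control as floor and 1 with it at the 75th percentile, where the dim aortic values are raised. The member probe sets counted lower, 3 in the report, were 1 with 1 probe set per source sequence, an alternative chosen after seeing the data. With the floor at the 75th percentile the AP-1 and Egr1 targets had 3 lower genes and a median of -0.53, the Myc-related genes 1 higher and the MAPK cascade 0 higher; the cascade also had 0 higher at the highest background control. The AP-1 and Egr1 targets had 1 higher gene with median centring, with loess and with a floor at the 25th percentile of positive values. The other immediate early factors had 1 higher and 1 lower gene with the brightest probe set and 1 lower with plain probe sets, and the other phosphatases 1 higher with plain probe sets. With the brightest probe set Id3 rested on rc_AI171268_at and Fosl2 on rc_AI230842_at. With plain probe sets Fosl2 rested on rc_AI230842_at and Ptpn1 on M33962_at. Each of these single probe sets was past 2-fold. The cause of the other moves was not tested. Every other list count and median, and the median over the member genes, stayed within 1.5 times or within 0.39. Signal over background limits Jun, Ets1, Nr4a1 and Dusp1 most.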

Other observations

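Spry1, another feedback inhibitor of ERK signalling that is in none of the lists, was chosen after its own values had been seen. Its 1 probe set read 2543.8 on the endocardial and 1324.8 on the aortic array, 1.92-fold higher, just short of 2-fold and with the aortic value under the highest background control (1742.4). Ier5, a further immediate early gene chosen in the same way, was under the floor on both arrays with both probe sets.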
